A study of Mus musculus with 4 samples.

Results

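The transcripts described here are 10 genes of simple epithelia, chosen by name from the 22138 genes of the table: the keratins Krt7, Krt8, Krt18 and Krt19, the adhesion molecule Epcam, the claudins Cldn4, Cldn6 and Cldn7, the tight junction membrane protein Ocln (occludin) and the junction scaffold Tjp1 (ZO-1). They were measured by RNA sequencing in TT2, a line of female mouse embryonic stem cells of C57BL/6xCBA background, held undifferentiated in serum with LIF and without feeder cells. One group received control siRNA (n = 2) and the other siRNA against Hnrnpk (n = 2, the knockdown), the gene of the nucleic acid-binding protein hnRNP K. Both groups were transfected at 100 nM and again with the same siRNA at 50 nM 24 hours later. By the protocol they were harvested about 72 hours after the second transfection, while the design text gives 72 hours after transfection. The title of the series concerns hnRNP K in silencing through SETDB1, a histone methyltransferase. All 4 libraries come from 1 cell line under 1 siRNA treatment each, and how many siRNAs made up a treatment is not stated in the sources used here.

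Simple, single-layered epithelia build their intermediate filaments from pairs of keratins, a type II keratin (Krt7 or Krt8) with a type I keratin (Krt18 or Krt19). Neighbouring cells are sealed by tight junctions, where claudins and occludin span the membranes and ZO-1 anchors them to the actin cytoskeleton. Epcam is a cell adhesion molecule that binds and stabilises claudin-7. Embryonic stem cells grow as compact, E-cadherin-bound colonies and express several of these genes, while the keratins mark the outer epithelium of the blastocyst, the trophectoderm.

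After knockdown this set did not move as a block. Krt8 and Krt18 rose by about the same factor, 1.83 and 1.85 by the ratio of mean RPKM (read counts scaled to transcript length and to the number of mapped reads), and Cldn4 rose 2.02-fold. Cldn6, Cldn7 and Ocln fell to 0.437, 0.455 and 0.452 of their control means, Epcam to 0.639 and Tjp1 to 0.765. Krt19 stayed within the spread between replicates, and Krt7 was too low to be tested. Of the 9 genes tested, 3 were called higher and 5 lower at a limma adjusted p under 0.05. Among all 12486 genes tested, 67.2% were called, 32.2% higher and 35.0% lower, so a call by itself sets no gene apart in this experiment. The size of the change was less common: 3 of the 9 reached a log2 change of 1, which 8.51% of all genes tested did with a call, and the median size was 0.87 against 0.32 over all genes tested. The 3 were Cldn4, Cldn6 and Cldn7, and without control replicate 1 only Cldn4 reached that size (8.14% of all genes tested).

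The promoters of the genes that moved together or in opposite directions are shown first. RefSeq windows on GRCm38.p6, running from 250 bases before to 50 bases after a transcription start, were found for 9 of the 10 genes. Printed here are the parts upstream of the first start annotated by RefSeq or GENCODE M21, for the keratin pair that rose (Krt8, Krt18), for the claudin that rose (Cldn4) and for the claudin with the largest fall of the set (Cldn6). Capitals mark matches to 6 motifs searched on both strands: the GC box GGGCGG, the CCAAT box CCAAT, the TATA box TATAAA, the AP-1 site TGANTCA, the AP-2 site GCCNNNGGC and the CT element CCCTCCC, a cytosine-rich motif of the kind hnRNP K is known to bind. The stretches lie at chr15:102004483-102004592 on the minus strand (Krt8), chr15:102027966-102028179 on the plus strand (Krt18), chr5:134946935-134947184 on the minus strand (Cldn4) and chr17:23679115-23679248 on the plus strand (Cldn6), each written 5′ to 3′ along its gene.
Krt8: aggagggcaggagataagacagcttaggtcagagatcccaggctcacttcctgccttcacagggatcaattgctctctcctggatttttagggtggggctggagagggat
Krt18: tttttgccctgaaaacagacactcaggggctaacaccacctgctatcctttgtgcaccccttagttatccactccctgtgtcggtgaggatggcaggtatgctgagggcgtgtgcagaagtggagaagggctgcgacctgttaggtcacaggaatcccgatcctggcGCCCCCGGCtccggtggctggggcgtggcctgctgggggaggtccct
Cldn4: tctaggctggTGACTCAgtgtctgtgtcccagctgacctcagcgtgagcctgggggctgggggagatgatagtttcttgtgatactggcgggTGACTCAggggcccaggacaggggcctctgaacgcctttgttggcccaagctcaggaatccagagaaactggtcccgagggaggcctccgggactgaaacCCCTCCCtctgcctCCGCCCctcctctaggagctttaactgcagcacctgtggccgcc
Cldn6: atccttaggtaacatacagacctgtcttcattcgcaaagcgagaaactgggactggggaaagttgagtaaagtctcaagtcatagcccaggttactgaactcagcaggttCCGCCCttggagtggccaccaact

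The 2 keratin stretches share no motif of the 6. Krt18 held 1 AP-2 match, a motif that 16.6% of all 32851 RefSeq windows held, and none of the 6 motifs lay in the printed Krt8 stretch. All such shares are over full windows, which are longer than the printed stretches. At and just before its RefSeq start, outside the printed stretch, the Krt8 window held 1 CT element and 2 overlapping matches to the TATA box, found in 22.0% and 13.6% of all windows. The starts of Krt8 and Krt18 lie 23.87 kb apart on chromosome 15 and point away from each other. Cldn4 held 2 AP-1 matches, at bases -240 to -234 and -158 to -152 from its start, a motif found in 7.81% of all windows. It also held a CT element and, in the printed stretch, a GC box (35.7% of all windows). The printed Cldn6 stretch held 1 GC box match and no AP-1 match. The CT element was not limited to genes that rose. Over full windows it lay in 5 windows of the set: those of Krt8 and Cldn4, 1 of Cldn7 and each of Ocln. Cldn7 and Ocln fell. The windows of Krt18, which rose, and of Cldn6, Epcam and Tjp1, which fell, held none. These matches describe the letters only. The libraries measured RNA, and binding at these promoters was not measured in them.

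The knockdown was visible in each library. Hnrnpk stood at 236 and 226 RPKM in control replicates 1 and 2 and at 68.0 and 70.5 RPKM in knockdown replicates 1 and 2. Part of its transcript (50.5%) is shared with other genes at 95% identity or more. Markers of embryonic stem cells were high in every library: Pou5f1 lay between 245 and 301 RPKM, Zfp42 between 480 and 510 RPKM and Esrrb between 125 and 155 RPKM, and none of the 3 was called. Nanog (log2 change 0.82) and Dppa5a (0.83) were called higher, Sox2 (-0.53) and Tdgf1 (-0.24) lower, the last a call lost without knockdown replicate 1 (adjusted p = 0.062). At 1 RPKM, a transcript of 1 kb stood for about 124 and 122 counted units (read pairs or single reads, which the values do not settle) in control replicates 1 and 2, against 111 and 110 in knockdown replicates 1 and 2.

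Of the type II keratins in the set, Krt8 (ENSMUSG00000049382, chromosome 15) was by far the more abundant. It was listed at 10.8 and 13.7 RPKM in control replicates 1 and 2 and at 21.2 and 23.7 RPKM in knockdown replicates 1 and 2. The lower knockdown value exceeded the higher control value, by a gap wider than that between either pair of replicates. The means were 12.3 ± 2.04 and 22.4 ± 1.76 RPKM (mean ± SD, n = 2 per group), a log2 change of 0.85 (limma SE 0.105, adjusted p = 7.58e-05). Its level is uncertain, since 51.8% of its longest coding transcript is shared with other annotated genes. The longest match, 941 bases at 98.6% identity, is to the processed pseudogene Krt8-ps, which was not analysed here, and the treatment of reads matching both is not stated in the sources used here. In bulk RNA a higher level can come from more cells that express a gene or from more RNA per cell, and the 2 cannot be told apart.

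Krt7 (ENSMUSG00000023039, chromosome 15), the other type II keratin of simple epithelia, was low in every library. It was listed at 0.128 and 0.167 RPKM with control siRNA and at 0.224 and 0.283 RPKM in the knockdown. The knockdown values were the higher ones, but Krt7 missed the required mean of 0.5 RPKM and was not tested. In every library it amounted to 1.06% to 1.21% of the Krt8 level.

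Krt18 (ENSMUSG00000023043, chromosome 15), the type I partner of Krt8, followed it closely. Its values were 15.8 and 18.9 RPKM in control replicates 1 and 2 and 30.9 and 33.2 RPKM in knockdown replicates 1 and 2, with no overlap between the groups. The means of 17.4 ± 2.17 and 32.0 ± 1.59 RPKM (mean ± SD, n = 2 per group) gave a log2 change of 0.87 (limma SE 0.0872, adjusted p = 2.01e-05). The ratio of Krt8 to Krt18 was 0.685 and 0.726 with control siRNA and 0.685 and 0.714 in the knockdown. By these values the pair stood in nearly the same proportion in every library while both levels rose. The ratio carries the uncertainty of the Krt8 level, since reads shared with Krt8-ps may count in it. By the distance between centred log2 values over the 4 libraries, Krt18 ranked 4 among the 12485 other genes tested for likeness to Krt8. The 3 nearer genes were Gtf3c6, Med22 and Anapc10, with log2 changes of 0.84, 0.89 and 0.85. With 4 libraries in 2 groups, this likeness mostly restates the size of the change and the order of the control replicates.

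Krt19 (ENSMUSG00000020911, chromosome 11), a type I keratin that lacks most of the usual tail domain, was not called. It was listed at 7.44 and 7.67 RPKM with control siRNA and at 7.43 and 8.39 RPKM in the knockdown, where the ranges overlap. Its log2 change came to 0.06 (limma SE 0.0816, adjusted p = 0.541), with a 95% interval from -0.12 to 0.24. That interval lies wholly below those of Krt8 (0.61 to 1.09) and Krt18 (0.67 to 1.07). The ratio of Krt19 to Krt18 went from 0.470 and 0.406 with control siRNA to 0.240 and 0.253 in the knockdown. Summed type I RPKM (Krt18 and Krt19) over summed type II RPKM (Krt7 and Krt8) was 2.02 ± 0.148 in control and 1.76 ± 0.0401 in knockdown libraries (mean ± SD, n = 2 per group). The sums went from 24.9 ± 2.33 to 39.9 ± 2.26 RPKM for type I and from 12.4 ± 2.07 to 22.7 ± 1.80 RPKM for type II (mean ± SD, n = 2 per group).

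**Figure D1:**
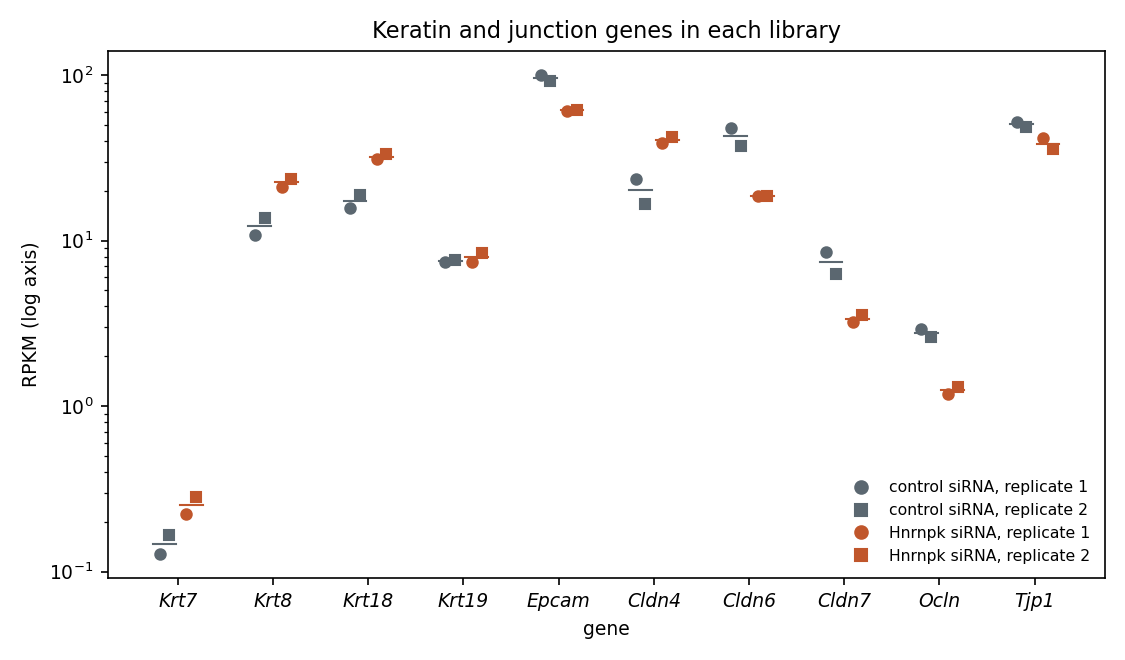
RPKM on a log axis for each of the 10 genes in the 4 libraries, where circles are replicate 1, squares replicate 2 and short lines group means. The knockdown libraries lie above the control libraries for Krt7, Krt8, Krt18 and Cldn4 and below them for Epcam, Cldn6, Cldn7, Ocln and Tjp1, while Krt19 overlaps between 7.43 and 8.39 RPKM.

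Epcam (ENSMUSG00000045394, chromosome 17) was the most abundant of the 10 genes in every library. It was listed at 100.3 and 91.7 RPKM in control replicates 1 and 2 and at 61.0 and 61.8 RPKM in knockdown replicates 1 and 2. The groups did not overlap, and the means of 96.0 ± 6.14 and 61.4 ± 0.559 RPKM (mean ± SD, n = 2 per group) gave a log2 change of -0.64 (limma SE 0.0665, adjusted p = 2.49e-05). Cldn7 (ENSMUSG00000018569, chromosome 11), the claudin that Epcam binds, fell further. Its values were 8.56 and 6.23 RPKM with control siRNA and 3.20 and 3.53 RPKM in the knockdown, again without overlap. The means of 7.40 ± 1.64 and 3.36 ± 0.231 RPKM (mean ± SD, n = 2 per group) gave a log2 change of -1.02 (limma SE 0.128, adjusted p = 8.48e-05). Epcam exceeded Cldn7 by a factor of 11.7 and 14.7 with control siRNA and of 19.1 and 17.5 in the knockdown.

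Cldn6 (ENSMUSG00000023906, chromosome 17), a claudin of embryonic epithelia and pluripotent cells, was the leading claudin of the control cells. It was listed at 47.6 and 37.4 RPKM in control replicates 1 and 2 and at 18.5 and 18.6 RPKM in knockdown replicates 1 and 2. The knockdown libraries nearly coincided, and both lay far below the lower control library. The means of 42.5 ± 7.18 and 18.6 ± 0.0835 RPKM (mean ± SD, n = 2 per group) gave a log2 change of -1.16 (limma SE 0.0995, adjusted p = 7.65e-06), the largest of the 9 tested. Cldn6 and Cldn7 kept their proportion, with a ratio of 5.56 and 6.01 with control siRNA and of 5.78 and 5.28 in the knockdown. The genes nearest to Cldn6 by the same distance were Ltbp1, Aifm3 and Dhcr7, and Cldn7 ranked 148 and Ocln 507 among 12485 genes.

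Cldn4 (ENSMUSG00000047501, chromosome 5), a claudin of many simple epithelia, went the other way. It was listed at 23.6 and 16.5 RPKM in control replicates 1 and 2 and at 38.9 and 42.0 RPKM in knockdown replicates 1 and 2. The control replicates differed more from each other than the knockdown replicates did, and the groups did not overlap. The means of 20.1 ± 4.99 and 40.5 ± 2.22 RPKM (mean ± SD, n = 2 per group) gave a log2 change of 1.02 (limma SE 0.133, adjusted p = 0.000108). The gene has a single exon of 1816 bases, and its values stood for about 3662 to 8365 counted units per library, so that counting error is small beside the spread between replicates. Within a library, Cldn6 exceeded Cldn4 by a factor of 2.02 and 2.26 after control siRNA, and stood at 0.476 and 0.443 of it after knockdown.

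Cldn4 and Cldn6 exchanged places while the claudin total overlapped between the groups. Summed over the 24 claudin genes of the table, RPKM was 86.6 ± 15.7 after control siRNA and 77.4 ± 3.39 after knockdown (mean ± SD, n = 2 per group), with single libraries from 75.5 to 97.7 and from 75.0 to 79.8. Cldn6 made up 48.7% and 49.5% of that sum with control siRNA and 24.7% and 23.3% in the knockdown. Cldn4 made up 24.1% and 21.9%, and then 51.9% and 52.7%. The share of Cldn7 went from 8.51 ± 0.360% to 4.34 ± 0.108% (mean ± SD, n = 2 per group). Cldn12, a claudin that was not called (log2 change 0.13), held 11.7 ± 2.01% and 14.1 ± 0.113% (mean ± SD, n = 2 per group). Because these are shares of a sum, a rise of one lowers the others.

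**Figure D2:**
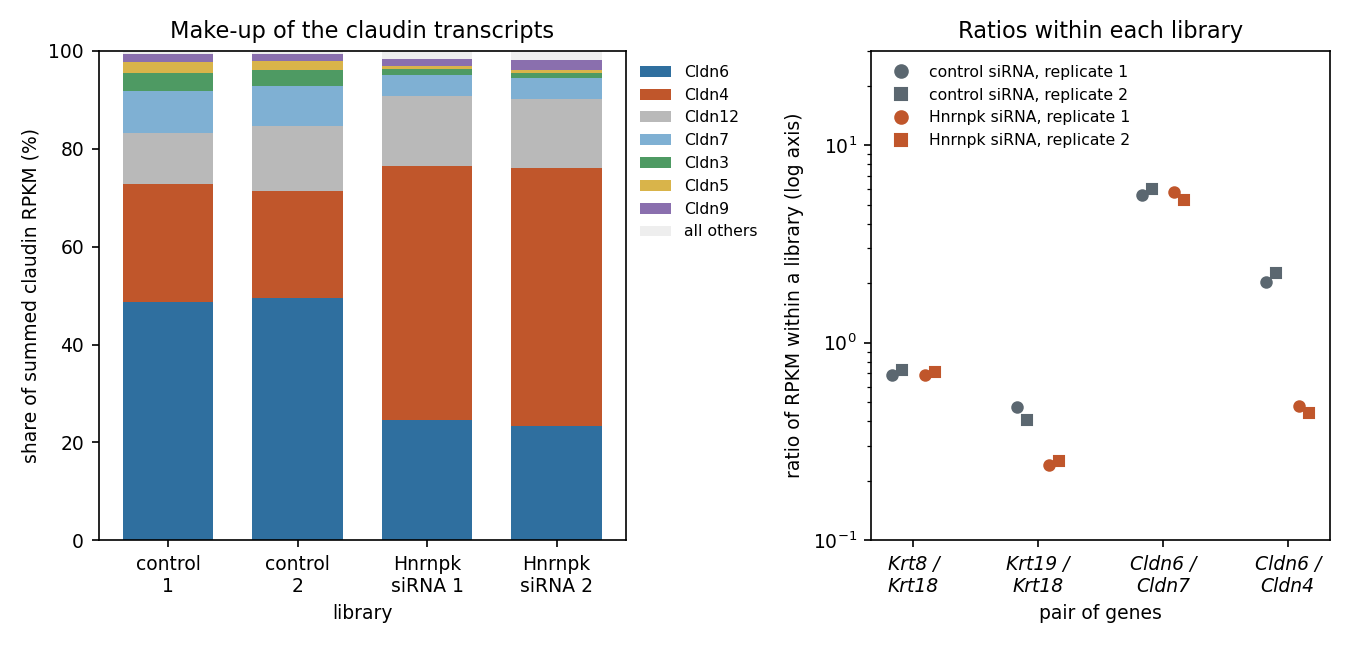
Left, the share of summed claudin RPKM held by each claudin in each library, in percent; right, ratios of RPKM between pairs of genes within each library, on a log axis, with circles for replicate 1 and squares for replicate 2. Cldn4 takes 51.9% and 52.7% after knockdown against 24.1% and 21.9% after control siRNA, and the ratio of Krt8 to Krt18 lies between 0.685 and 0.726 in all 4 libraries.

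Occludin and ZO-1 both fell. Ocln (ENSMUSG00000021638, chromosome 13) was listed at 2.93 and 2.60 RPKM in control replicates 1 and 2 and at 1.19 and 1.31 RPKM in knockdown replicates 1 and 2, with no overlap. The means of 2.76 ± 0.231 and 1.25 ± 0.0872 RPKM (mean ± SD, n = 2 per group) gave a log2 change of -0.90 (limma SE 0.0954, adjusted p = 2.88e-05). At this level the added 0.5 RPKM shrinks the change, and with an added 0.1 RPKM it was -1.08. Tjp1 (ENSMUSG00000030516, chromosome 7) was listed at 52.2 and 48.4 RPKM with control siRNA and at 41.4 and 35.7 RPKM in the knockdown, also without overlap. Its fall, from 50.3 ± 2.66 to 38.5 ± 4.04 RPKM (mean ± SD, n = 2 per group), was the smallest among the called genes of the set, with a log2 change of -0.38 (limma SE 0.0807, adjusted p = 0.00212).

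By RPKM, which allows for transcript length, the order of the 10 genes differed between the groups. After control siRNA it ran Epcam, Tjp1, Cldn6, Cldn4, Krt18, Krt8, Krt19, Cldn7, Ocln and Krt7. The replicate ranges of Cldn4 and Krt18 overlapped there, as did those of Krt19 and Cldn7. After knockdown it ran Epcam, Cldn4, Tjp1, Krt18, Krt8, Cldn6, Krt19, Cldn7, Ocln and Krt7, with overlapping ranges for Cldn4 and Tjp1 only. The knockdown and control libraries did not overlap for 9 of the 10 genes, all but Krt19. These 9 include Krt7, which was not among the genes tested. Of all genes tested, 84.7% had groups that did not overlap, so this separation by itself sets no gene apart. Across the set, 6 of the 10 genes were higher in control replicate 1 than in control replicate 2, namely Epcam, Ocln, Tjp1 and the 3 claudins, while the 4 keratins were lower. In the knockdown pair, 9 of 10 were higher in replicate 2, the exception being Tjp1.

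**Figure D3:**
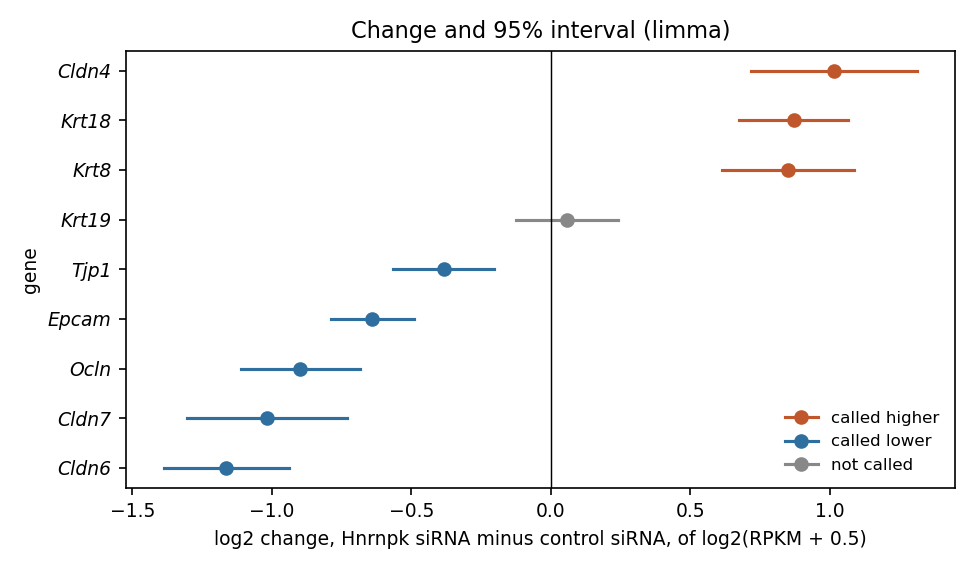
Log2 change of log2(RPKM + 0.5) for the 9 genes tested, Hnrnpk siRNA minus control siRNA, with 95% intervals from limma as lines. Cldn4, Krt18 and Krt8 lie above 0, the interval of Krt19 (-0.12 to 0.24) spans 0, and Tjp1, Epcam, Ocln, Cldn7 and Cldn6 lie below 0.

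Other genes of the same structures were described by lists, each set beside a median log2 change of -0.015 over all genes tested. The counts of calls in every list are to be read beside the 32.2% called higher and 35.0% called lower among all genes tested. Of the other claudins, 22 were in the table and 5 passed the filter on low values; 1 was called higher and 2 lower, with a median log2 change of 0.06. Cldn3 fell from 2.98 ± 0.683 to 0.940 ± 0.104 RPKM and Cldn5 from 1.82 ± 0.679 to 0.421 ± 0.0350 RPKM (mean ± SD, n = 2 per group), with log2 changes of -1.26 and -1.30. Cldn5 passed the filter only through its control level. Cldn9, the neighbour of Cldn6, was not called (log2 change 0.06, limma adjusted p = 0.726). The row named Cldn25 carries the identifier of Cldnd1, a claudin-related gene, and was called higher (log2 change 0.33).

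Among 27 other tight junction genes tested, 5 were called higher and 11 lower, with a median log2 change of -0.15. The lowest p among those called lower belonged to scaffold proteins of the junction's inner face: Mpdz (MUPP1) fell from 3.58 ± 0.177 to 0.960 ± 0.0330 RPKM, Cgn (cingulin) from 8.63 ± 0.342 to 3.15 ± 0.157 RPKM and Magi1 from 8.69 ± 0.00492 to 3.59 ± 0.132 RPKM (mean ± SD, n = 2 per group). Their log2 changes were -1.48, -1.32 and -1.17. The junctional adhesion molecules Jam2 and F11r (JAM-A) rose: Jam2 went from 22.2 ± 0.906 to 40.7 ± 1.17 RPKM and F11r from 29.8 ± 0.667 to 54.2 ± 3.72 RPKM (mean ± SD, n = 2 per group), with log2 changes of 0.86 and 0.85. Mpp5 (PALS1), a polarity scaffold, was also called higher (log2 change 0.32), a call lost without knockdown replicate 1 (0.19, limma adjusted p = 0.0641), where 3 of the 27 genes were called higher.

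In the remaining keratins, 46 were in the table and 4 passed the filter, of which 3 were called higher and 1 lower (median log2 change 0.30). With no filter 13 were called higher and 4 lower. Without either knockdown library only 1 of them, Krt42, was called higher. The most abundant keratin of these cells was none of the 4 simple epithelial ones but the type I keratin Krt42, at 33.9 and 35.0 RPKM in control replicates 1 and 2 and at 64.7 and 72.8 RPKM in knockdown replicates 1 and 2. Its log2 change of 0.98 (limma SE 0.0718, adjusted p = 2.92e-06) was of the size seen for Krt8 and Krt18, and its transcript shares no stretch of 100 bases at 95% identity with another gene. Krt17 fell from 9.86 ± 0.239 to 8.11 ± 0.485 RPKM (mean ± SD, n = 2 per group; log2 change -0.27, limma adjusted p = 0.0107), a call lost when trends on GC content were removed (-0.10) and without knockdown replicate 1. Krt28 and Krt10, with log2 changes of 0.35 and 0.25, each lost the call without knockdown replicate 1 (adjusted p = 0.0506 and 0.0913) and without knockdown replicate 2 (0.123 and 0.303).

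Of 13 keratin linkers and other intermediate filament genes tested, 4 were called higher and 6 lower (median log2 change -0.07). Fam83h, whose protein organises keratin filaments, rose from 5.74 ± 0.331 to 12.4 ± 0.365 RPKM (mean ± SD, n = 2 per group; log2 change 1.05), and Vim (vimentin) and Synm (synemin) had log2 changes of 0.47 and 0.57. Nes (nestin), Des (desmin) and the linker Plec (plectin) were lower, at -0.91, -0.55 and -0.45. Desmosomes, the spot junctions to which keratins attach, had 5 genes called higher and 3 lower of 8 tested (median log2 change 0.27), with 3 higher when knockdown replicate 1 was left out. Perp, a membrane protein of desmosomes and a p53 target, rose from 13.2 and 12.9 RPKM in the control replicates to 56.4 and 60.6 RPKM in the knockdown replicates (log2 change 2.12), and Jup (plakoglobin) from 61.0 ± 2.07 to 96.8 ± 3.71 RPKM (mean ± SD, n = 2 per group; log2 change 0.66). The desmosomal cadherin Dsc2 had a log2 change of 1.24 but passed the filter only through its knockdown level. The plakophilins Pkp2, Pkp3 and Pkp4 were lower, at -0.79, -0.67 and -0.24, of which the Pkp4 call was lost without knockdown replicate 2 (adjusted p = 0.0642).

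Adherens junctions hold the same cells together through cadherins and nectins. Cdh1 (E-cadherin), their main cadherin in epithelia, was listed at 125.5 and 116.9 RPKM with control siRNA and at 107.5 and 103.1 RPKM in the knockdown, a log2 change of -0.20 (limma SE 0.0657, adjusted p = 0.0208). That call was lost without control replicate 1 (-0.15, adjusted p = 0.128) and without knockdown replicate 2 (-0.17, adjusted p = 0.0965). The catenins Ctnnb1 and Ctnna1 were higher, with log2 changes of 0.34 and 0.29. Mllt4 (afadin), which ties nectins to actin, fell from 25.6 ± 2.59 to 9.60 ± 0.643 RPKM (mean ± SD, n = 2 per group; log2 change -1.37), its binding partner Pvrl3 (nectin-3) had a log2 change of -0.68 and Vcl (vinculin) of -0.56. Of 11 genes tested, 4 were called higher and 4 lower (median log2 change 0.07), and without knockdown replicate 1 only 2 were called higher. Pvrl4 (nectin-4, log2 change 0.32) lost its call without either knockdown library, at an adjusted p of up to 0.141.

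Relatives and membrane partners of Epcam mostly went the other way, with 4 called higher and 1 lower of 7 tested (median log2 change 0.20). Cd9, a tetraspanin, rose from 125 ± 14.8 to 217 ± 11.8 RPKM (mean ± SD, n = 2 per group; log2 change 0.80) and the membrane protease St14 (matriptase) had a log2 change of 0.44. Tspan8, another tetraspanin, had a log2 change of -0.72 and passed the filter only through its control level.

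Regulators of epithelial identity went both ways, 3 called higher and 3 lower of 10 tested (median log2 change -0.046). Esrp1, a splicing factor of epithelial cells, fell from 9.23 ± 0.564 to 3.87 ± 0.0223 RPKM (mean ± SD, n = 2 per group; log2 change -1.15), Grhl1 and Grhl2 had log2 changes of -0.40 and -0.34, and Grhl3 one of 0.47. The Grhl2 call was lost without knockdown replicate 1 (adjusted p = 0.0787). Gata3, a trophectoderm factor, rose from 0.575 ± 0.00927 to 5.30 ± 0.0297 RPKM (mean ± SD, n = 2 per group; log2 change 2.43). Klf5 (log2 change 0.16, adjusted p = 0.0484) lost its call under 8 of 13 alternatives. Of 7 genes tested of the transition to mesenchymal cells, 4 were called higher and 1 lower (median log2 change 0.43). Snai1, a repressor of Cdh1 and of claudins, rose from 2.15 ± 0.0315 to 18.0 ± 0.310 RPKM (mean ± SD, n = 2 per group; log2 change 2.80), Snai2 and Twist1 had log2 changes of 0.73 and 0.60, and Fn1 (fibronectin) fell (-0.46). Snai2 passed the filter only through its knockdown level. Cdh2 (N-cadherin) was not called (log2 change 0.18, adjusted p = 0.0983).

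**Figure D4:**
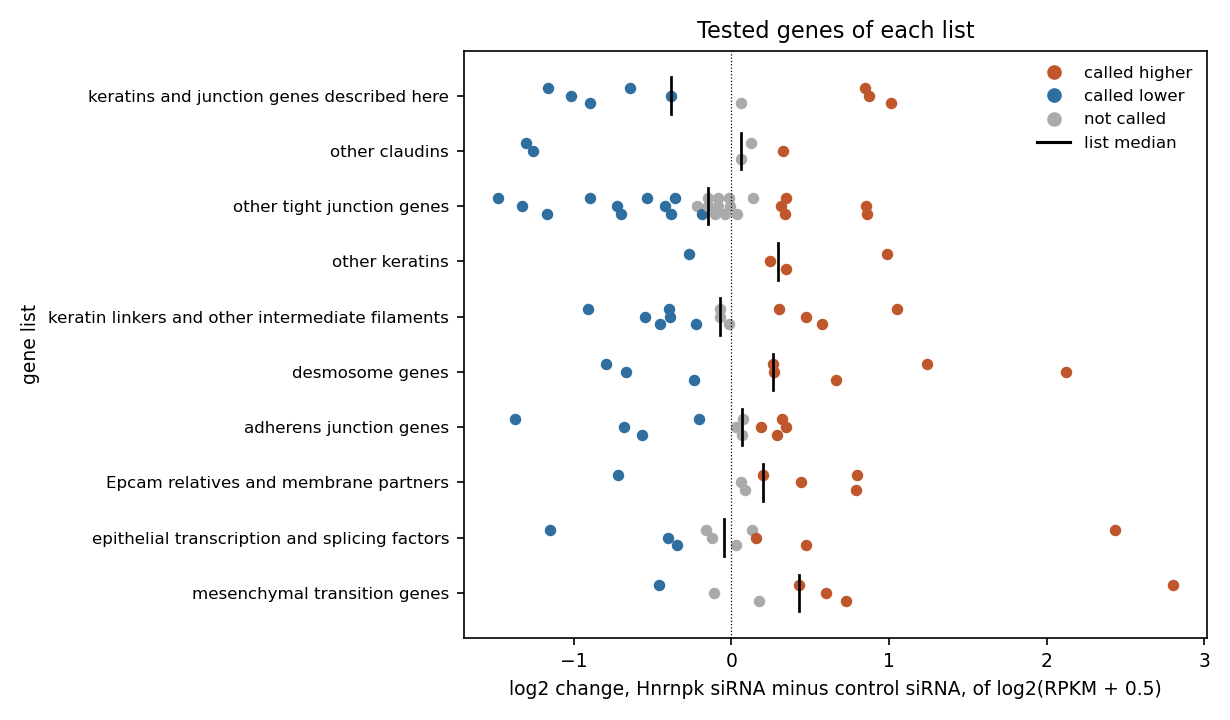
Log2 change of log2(RPKM + 0.5), Hnrnpk siRNA minus control siRNA, for each tested gene (points) of each list, coloured by call, with list medians as black lines. The other tight junction genes range from -1.48 (Mpdz) to 0.86 (Jam2), and calls in both directions occur in every list shown.

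Most tested markers of 2 other lineages that express Krt8 and Krt18 rose beside the keratins. Of 6 trophectoderm markers tested, 5 were called higher and none lower (median log2 change 1.48), where 32.2% of all genes tested were called higher. Ascl2 (log2 change 0.30), counted among the 5, lost its call without either knockdown library. The 9 markers in the table summed to 18.7 to 24.4 RPKM with control siRNA and to 47.1 to 47.9 RPKM in the knockdown. Besides Gata3, Hand1 and Tead4 had the lowest p, with log2 changes of 1.58 and 1.38, while Cdx2 reached no more than 0.749 RPKM. Elf5 and Plac1 were too low to be tested and lay lower in the knockdown, at 0.107 ± 0.00252 and 0.0656 ± 0.00680 RPKM for Elf5 and at 0.198 ± 0.0267 and 0.0669 ± 0.0258 RPKM for Plac1 (mean ± SD, n = 2 per group). With no filter both were called lower, and 6 of the list higher. Of 7 primitive endoderm markers tested, 6 were called higher and none lower (median log2 change 1.70), and the 9 in the table summed to at most 21.8 and to 63.1 to 65.0 RPKM. Col4a1 was the largest single part of the knockdown sum, with a mean of 23.1 RPKM. Lama1 was not called (log2 change 0.07). Sox17 and Foxa2 were too low to be tested, though higher in the knockdown. The lowest p belonged to Gata6, Col4a1 and Dab2, with log2 changes of 3.66, 1.72 and 1.70. Pdgfra, counted among the 6, passed the filter only through its knockdown level (0.170 ± 0.0301 and 0.898 ± 0.0890 RPKM, mean ± SD, n = 2 per group). No marker of either list was at 0 in all libraries, and the part of these cell types in the keratin and claudin values was not tested. Markers of stratified epithelium summed to 1.99 to 2.07 and to 2.43 to 2.66 RPKM, most of it Krt10, and Trp63 reached at most 0.0109 RPKM. Fibroblast markers summed to 8.78 to 10.4 and to 5.05 to 5.30 RPKM, and Thy1 and Col1a1 were called lower (log2 changes -1.24 and -0.42).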

How the data were processed

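RNA from 2 control siRNA and 2 Hnrnpk siRNA libraries was sequenced, and groups and replicate numbers follow the labels. The knockdown denotes Hnrnpk siRNA. The labels call the RNA both depleted of ribosomal RNA and selected for poly(A). The authors deposited 1 table of RPKM per gene and library, and the submitters' processing notes name BWA, SAMtools and the mm9 build. The counting step and annotation are not recorded in the sources used here. RPKM are not counts, so no count model was used; relative depth, from the commonest ratio between low values, was 0.982, 0.891 and 0.882 in control replicate 2 and Hnrnpk siRNA replicates 1 and 2 with control replicate 1 at 1. Whether replicates were separate cultures beyond the design's word for them is not given, so p-values measure the spread between these samples.

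Values were analysed as log2(RPKM + 0.5) for genes whose mean reached 0.5 RPKM, with limma 3.58.1 in R 4.3.3 (mean-variance trend, two-sided, Benjamini-Hochberg over 12486 genes, called at an adjusted p under 0.05). Tested on simulated data for this comparison, with 200 of 12486 genes changed, limma called 79% of genes changed by 0.5 on the log2 scale. It called 100% of those changed by 1. Of 188 calls, 9 were among unchanged genes. In the data 67.2% of genes were called, far more than in the simulation, so these shares need not hold there. An exact permutation test of 2 against 2 cannot give a p below 0.333. Identifiers were matched to GENCODE M21 (92.8% of 22138) for GC content, and transcripts compared by BLAST 2.17.0 (95% identity, 100 bases). Promoters came from RefSeq (GRCm38.p6). The 24 claudins leave out rows whose identifier is another gene in GENCODE M21. The genes, lists and alternatives were chosen with earlier results of these data known. Named are the 10 genes, Hnrnpk, embryonic stem cell markers, Cdh1, up to 3 called genes per direction and list by lowest p, and the 3 genes nearest to Krt8 and to Cldn6. Cldn9, Cldn12, Cdh2, Pdgfra, Ascl2, the row Cldn25's identity and the markers given as low were named after their values were seen. A gene that the rule names is not reported here.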

Additional observations from a re-analysis of the deposited data

How the results depend on the processing

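Every called gene of the 10 kept its direction and its call under 13 alternatives: 2 other added values, 2 other filters, 3 other scalings, no variance trend, each library left out, and the replicate block. Without 1 library at a time, log2 changes ranged from 0.69 to 1.01 for Krt8, 0.75 to 0.99 for Krt18, 0.77 to 1.27 for Cldn4, -1.33 to -0.99 for Cldn6, -1.23 to -0.80 for Cldn7, -0.97 to -0.83 for Ocln, -0.70 to -0.58 for Epcam and -0.49 to -0.28 for Tjp1, with a lone library assumed to vary like the others. Krt19 was called under none of them; its log2 change was -0.023 without Hnrnpk siRNA replicate 2, 0.14 without Hnrnpk siRNA replicate 1 and 0.19 (limma adjusted p = 0.0579) with GC trends removed. With no filter Krt7 was tested and called higher (log2 change 0.22, adjusted p = 0.0268), and it was tested under no other alternative. The number of the 9 genes called with a log2 change of at least 1 ranged from 1 (with an added 1 RPKM, with quantile normalization and without control replicate 1) to 4 (with an added 0.1 RPKM). Over all genes, calls ranged from 3155 to 4760 higher and 3552 to 4900 lower. Of 56 genes named from the lists, 47 kept their call under every alternative and none reversed.

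The labels number the replicates and state no pairing between the groups. Deviations of same-numbered libraries correlated at 0.0267 across genes, which does not settle whether they were paired. With the number as a replicate block, 4162 genes were called higher and 4460 lower, and it changed no call among the 10 genes; among the named list genes it ended that of Krt10 (adjusted p = 0.0503). List counts were within 1.5 times of the reported ones in 343 of 364 cases.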

Other observations

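A few keratins and claudins missed the filter on low values but reached 0.5 RPKM in 1 group; they were singled out after their values were seen. Krt15, a keratin of basal epithelial cells, was listed at 0.00450 and 0.0206 RPKM with control siRNA and at 0.553 and 0.462 RPKM with Hnrnpk siRNA. Cldn15, a claudin of the intestine, was listed at 0.0859 and 0.0597 RPKM and then at 0.637 and 0.986 RPKM. Krt27 went from 0.239 ± 0.0507 to 0.565 ± 0.0585 RPKM and Krt222 from 0.520 ± 0.0107 to 0.325 ± 0.0548 RPKM (mean ± SD, n = 2 per group). With no filter, limma gave log2 changes of 0.97, 1.18, 0.53 and -0.31 for Krt15, Cldn15, Krt27 and Krt222, with adjusted p of 0.000833, 0.00318, 0.0048 and 0.0144. All 4 stayed below 1 RPKM in every library.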
